A study of Mus musculus with 10 samples.

Results

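Cobalamin (vitamin B12) transport and use was examined in brown adipose tissue (BAT) through 10 genes of the 24454 listed, namely Tcn2, Cd320, Lmbrd1, Mmachc, Mmadhc, Mmaa, Mmab, Mut, Mtr and Mtrr. Tcn2 was picked for its fall in *Stat5* Adipoq BAT, and the other 9 were selected on their known role in handling the vitamin. All 10 were among the 13568 genes that passed the filter on low counts. RNA-Seq of BAT from male mice, with 5 control and 5 *Stat5* Adipoq libraries, asked how loss of adipocyte STAT5 changes gene expression in this tissue. The labels call every library basal. The mice were of strain C57BL/6N, were studied at 2 months of age and ate standard chow ad libitum. In *Stat5* Adipoq mice, Cre recombinase driven by the adiponectin promoter (Adipoq-Cre) deletes the floxed Stat5a and Stat5b genes in adipocytes, so other cells of the sequenced tissue keep them. The methods describe controls as littermates that carried the same floxed alleles but lacked Adipoq-Cre, and the labels name them wild type. Neither source states that each of the 5 replicates is a separate mouse, so p-values measure only the spread between these libraries, which may be technical.

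Cobalamin travels in blood bound to transcobalamin, the product of Tcn2, and cells take up the complex through the receptor CD320. The vitamin is released in lysosomes, exported to the cytosol, stripped of its upper ligand and then directed either to methionine synthase in the cytosol or to methylmalonyl-CoA mutase in mitochondria. The mutase carries out the last step by which propionate from branched-chain amino acids and odd-chain fatty acids, fuels that brown adipocytes oxidise, is turned into succinyl-CoA.

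The libraries held between 8488129 and 19514904 counts on genes in controls, with a median of 10710575, and between 9401827 and 15686868 in *Stat5* Adipoq BAT, with a median of 11671635. Values are CPM (counts scaled to a common library total with factors of the TMM method), and fold changes are *Stat5* Adipoq over control. The deleted genes followed the labels. Stat5a was 105 ± 17.0 CPM in control against 17.1 ± 2.05 CPM in *Stat5* Adipoq BAT, and Stat5b was 83.8 ± 5.51 against 21.8 ± 0.723 CPM (SD, n = 5 each). Every *Stat5* Adipoq library was below every control for both genes.

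Control replicates 3 and 4 stood apart from the other controls. Control replicate 3 was high in skeletal muscle genes, with a sum over 10 muscle markers of 3821 CPM against 4.70 to 309 CPM in the other controls, and its sum over 11 liver markers was 283 CPM against 62.0 to 192 CPM. Control replicate 4 was sequenced to 19514904 counts, and the next deepest control had 10936218.

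Tcn2 is a gene of the minus strand of chromosome 11 (GRCm38, bases 3917077 to 3932078). The mRNA was 143, 139, 157, 158 and 137 CPM in control replicates 1 to 5 and 82.9, 78.3, 79.4, 84.3 and 85.7 CPM in *Stat5* Adipoq replicates 1 to 5. The genotypes did not overlap, and the lowest control was 1.60-fold above the highest *Stat5* Adipoq library. The means were 147 ± 9.91 against 82.1 ± 3.16 CPM (SD, n = 5 each), so that *Stat5* Adipoq BAT held 56.0% of the control level, a log2 fold change of -0.84. No test is given for Tcn2, because this contrast is the one that picked it. The values rest on 765 to 3119 counts per library. Ordered from the lowest fold change, Tcn2 held position 117 among the 10152 genes with at least 50 counts on average and position 407 among all 13568. The fold change was -0.81 on the log2 scale without control replicate 3 and stayed between -0.86 and -0.81 over all settings and left-out libraries. In bulk tissue, fewer cells of a type that express Tcn2 and less Tcn2 RNA per cell cannot be told apart.

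Marker lists were read beside this value. The brown adipocyte list (10 of 10 tested, none at 0 in all libraries, led by Ucp1) summed to 23283 ± 4444 CPM in control against 23553 ± 2436 CPM in *Stat5* Adipoq BAT (SD, n = 5 each). None of its genes was called by edgeR or by DESeq2, and 2 had an unadjusted p-value below 0.05, as did 2064 (15.2%) of all 13568 genes. Ucp1 and Fabp4 made up 75.4% of the control mean of this sum, with log2 fold changes of 0.24 and -0.16, and the estimates of single genes ran from -1.07 for Dio2 (limits -2.14 and 0.01) to 0.38 for Ppargc1a (limits -0.03 and 0.79), so a near-equal sum does not mean that each gene was equal. The endothelial list, led by Kdr, summed to 1034 ± 86.5 and 1093 ± 86.4 CPM (SD, n = 5 each), the macrophage list, led by Lyz2, to 192 ± 23.5 and 179 ± 17.3 CPM, and the fibroblast list, led by Col3a1, to 1592 ± 369 and 1404 ± 404 CPM. All 10 genes of each of these lists were tested, and edgeR and DESeq2 called none, with 2, 1 and 0 at an unadjusted p-value below 0.05.

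Liver, muscle and Schwann cell lists had lower mean sums in the *Stat5* Adipoq libraries. The liver list summed to 107, 101, 283, 192 and 62.0 CPM in control replicates 1 to 5 and to 87.9, 32.4, 35.2, 35.6 and 34.4 CPM in *Stat5* Adipoq replicates 1 to 5, with Cyp2e1 the most abundant gene and the only one of 9 tested that was called (exact two-sided permutation test of the sum, p = 0.016). Cyp2e1 made up 84.0% of the mean sum in control, so the sum and its test mostly reflect this gene. The other 10 liver genes were summed apart after the values were seen and were not tested. They gave 5.26, 4.26, 103, 3.89 and 3.29 CPM in controls and 5.95, 8.72, 5.17, 3.30 and 4.87 CPM in *Stat5* Adipoq libraries, so that control replicate 3 alone stood out. Without control replicate 3, their log2 difference was 0.37, against -1.36 for the full list. The muscle list, led by Myh4, summed to 59.4, 16.7, 3821, 4.70 and 309 CPM in controls and to 44.0, 2.5, 6.00, 18.6 and 16.9 CPM in *Stat5* Adipoq libraries. The Schwann cell list, led by Mbp, summed to 135, 338, 211, 540 and 201 CPM and to 233, 151, 123, 141 and 137 CPM. Both lists overlapped between the genotypes (exact two-sided permutation test of each sum, p = 0.16 for muscle and 0.12 for Schwann cells), the muscle mean of controls rests on control replicate 3, and edgeR called none of their 10 and 9 genes, with 10 and 8 at an unadjusted p-value below 0.05. DESeq2 gave an adjusted p for 4 of the 10 muscle genes and called 4, and for all 9 Schwann cell genes and called 2. For the liver list it gave one for 2 of 9 and called Cyp2e1, and 3 of the 9 had an unadjusted p-value below 0.05 in edgeR. Of all 13568 genes, 15.2% had an unadjusted p-value below 0.05 in edgeR, edgeR called 2.71% and DESeq2 called 4.85%. No gene of these 3 lists or of the 4 before was at 0 in all libraries. The part of these tissues in the Tcn2 value was not tested.

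**Figure D1:**
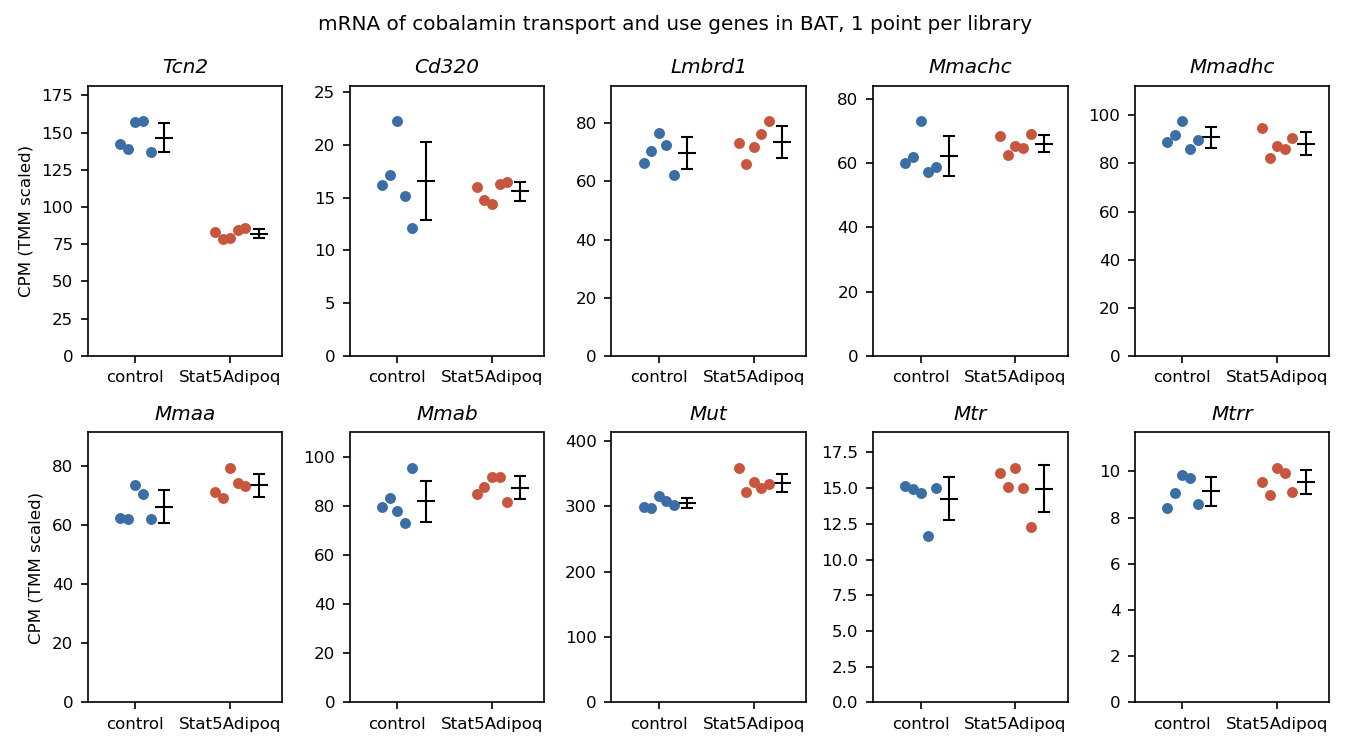
Each point is the mRNA of 1 library in CPM scaled by TMM, for 5 control (blue) and 5 *Stat5* Adipoq (red) libraries, with the mean and SD in black beside the points. Tcn2, which was picked for its fall in this contrast, and Mut separate the genotypes, Mut narrowly, and the other 8 overlap.

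None of the other 9 genes passed the threshold. Over all 13568 genes, edgeR's quasi-likelihood test called 368 (2.71%) at an adjusted p-value below 0.05, 178 lower (1.31%) and 190 higher (1.40%), and DESeq2's Wald test called 658 (4.85%), with no adjusted p for 346 of the genes. Of the 9, edgeR called 0 and DESeq2 called 0, while 2 of them, Mmaa and Mut, had an unadjusted p-value below 0.05 in edgeR, against 15.2% of all genes. Their log2 fold changes lay between -0.08 and 0.15 with a median of 0.08, against -0.84 for Tcn2 and a median of -0.0028 over all genes. Of the 9, 7 were above 0 under each scaling tried, as were 6679 of the 13568 genes with TMM.

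Cd320 encodes the receptor that takes up the transcobalamin complex. Its mRNA was 16.2, 17.2, 22.2, 15.1 and 12.2 CPM in controls and 16, 14.8, 14.4, 16.3 and 16.5 CPM in *Stat5* Adipoq libraries. The *Stat5* Adipoq values fell within the range of the controls, which spread more widely, with control replicate 3 the highest. Cd320 had a log2 fold change of -0.08 (95% confidence limits -0.37 and 0.21, adjusted p = 0.84 in edgeR) and 0.041 without control replicate 3.

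Lmbrd1 encodes a lysosomal membrane protein that works with the transporter ABCD4 in the export of cobalamin to the cytosol. It was 69.6 ± 5.53 CPM in control against 73.6 ± 5.44 CPM in *Stat5* Adipoq BAT (SD, n = 5 each), with confidence limits of the log2 fold change of -0.07 and 0.23. Abcd4 had a log2 fold change of 0.02 (limits -0.17 and 0.21). In the cytosol, MMACHC removes the upper ligand and MMADHC directs the vitamin to its destinations. Mmachc was 60.0, 62.0, 73.0, 57.1 and 58.7 CPM in controls and 68.2, 62.4, 65.4, 64.8 and 68.9 CPM in *Stat5* Adipoq libraries. Control replicate 3 was the highest of all 10 libraries, and the other 4 controls lay below every *Stat5* Adipoq library. Its log2 fold change was 0.09 (adjusted p = 0.62 in edgeR) and 0.15 without that library (adjusted p = 0.18), the lowest adjusted p over its alternatives, which reached 0.82. Mmadhc was 90.8 ± 4.31 against 88.2 ± 4.86 CPM (SD, n = 5 each), with limits of -0.16 and 0.08.

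In the mitochondrial branch, Mut encodes methylmalonyl-CoA mutase, and its mRNA was 299, 297, 316, 308 and 302 CPM in controls and 359, 321, 337, 327 and 334 CPM in *Stat5* Adipoq libraries. All *Stat5* Adipoq values were above all controls, a separation found for 596 of the 13568 genes (4.39%). The means of 304 ± 7.68 against 335 ± 14.4 CPM (SD, n = 5 each) gave a log2 fold change of 0.14 (standard error 0.05, limits 0.04 and 0.24), which did not pass the threshold over all genes (adjusted p = 0.17 in edgeR and 0.057 in DESeq2). Over all alternatives the adjusted p of Mut ranged from 0.057 to 0.31. Of the exon bases of Mut, 2.59% also lie in exons of Cenpq, which runs the other way.

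Mmaa encodes a G protein that guards the loading of the mutase with its cofactor. It was 62.4, 61.9, 73.7, 70.7 and 62.2 CPM in controls and 71.3, 69.1, 79.4, 74.1 and 73.3 CPM in *Stat5* Adipoq libraries. Control replicates 3 and 4 lay within the *Stat5* Adipoq range and the other controls below it. Mmaa had a log2 fold change of 0.15 (standard error 0.07, limits 0.01 and 0.29, adjusted p = 0.30 in edgeR), and 0.19 without control replicate 3 (adjusted p = 0.15). Mmab, the adenosyltransferase that makes the cofactor of the mutase, was 81.8 ± 8.50 CPM in control against 87.5 ± 4.49 CPM in *Stat5* Adipoq BAT (SD, n = 5 each). Its limits of -0.06 and 0.25 included 0.

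In the cytosolic branch, Mtr encodes methionine synthase and Mtrr the reductase that reactivates it. Mtr was 15.1, 15.0, 14.7, 11.6 and 15.0 CPM in controls and 16.1, 15.1, 16.4, 15.0 and 12.3 CPM in *Stat5* Adipoq libraries. Each genotype had 1 low library, control replicate 4 and *Stat5* Adipoq replicate 5, and the rest lay close together. For Mtr the log2 fold change was 0.07 (limits -0.15 and 0.30), and without control replicate 4 it was -0.00075. Mtrr was 9.13 ± 0.644 against 9.54 ± 0.507 CPM (SD, n = 5 each), with limits of -0.13 and 0.25.

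Levels of the 10 genes were compared with each other as CPM per kilobase of exon. In control BAT, Mut had the highest level at 82.9 ± 2.09, followed by Tcn2 at 72.7 ± 4.91 and Mmadhc at 67.7 ± 3.21 (SD, n = 5 each). The libraries of Tcn2 and Mmadhc overlapped, whereas those of Mut were above those of Tcn2. Mmachc (29.5 ± 3.0) and Mmab (27.1 ± 2.81) came next and overlapped, as did Lmbrd1 (12.9 ± 1.02) and Mmaa (11.7 ± 0.990). Cd320 followed at 6.86 ± 1.53, and the cytosolic pair was lowest, with Mtrr at 2.05 ± 0.144 and Mtr at 1.72 ± 0.180. In *Stat5* Adipoq BAT the order was the same except that Tcn2, at 40.7 ± 1.56, stood below Mmadhc, at 65.7 ± 3.62. Thus the mRNA of the mitochondrial acceptor of cobalamin was far more abundant per length than that of the cytosolic one in both genotypes. Apart from Mut, whose overlap is given above, no exon of these genes overlapped an exon of another gene, and at most 2.32% of the 50-base words of a gene (Mmaa) occurred in other genes.

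The genes around these steps were taken from 5 lists with 52 genes, of which 45 were tested. Of the 45, 4 were higher and 1 was lower by edgeR (11.1% called, against 2.71% of all genes), and the median log2 fold change was 0.08. DESeq2 also called 5 of the 45, against 4.85% of all genes. The lists were chosen with earlier results of these data known, so these shares are descriptions only. From the same data, the paper had reported branched-chain amino acid catabolism and the tricarboxylic acid cycle among its up-regulated terms. In the list from propionate to succinyl-CoA, which also takes in succinyl-CoA ligase beyond that end point, 4 of 8 tested genes were higher. These were Pcca and Pccb, the subunits of propionyl-CoA carboxylase, and Suclg1 and Suclg2, subunits of the ligase. Pcca, the gene with the largest change of the 4, was 407, 405, 416, 386 and 392 CPM in controls and 484, 506, 484, 529 and 519 CPM in *Stat5* Adipoq libraries. The genotypes did not overlap for these 4 genes, named because they were called, nor for 4.39% of all genes. Their log2 fold changes were 0.33, 0.20, 0.30 and 0.24, with adjusted p-values of 0.0038, 0.040, 0.0095 and 0.028 in edgeR. When each library was left out in turn, Pcca and Suclg1 were called in 10 of 10 fits, Suclg2 in 4 and Pccb in 0. Pccb also lost its call with no filter on low counts (adjusted p = 0.067 in edgeR), and with library size only both Pccb (0.091) and Suclg2 (0.073) did, at log2 fold changes close to those above (0.20 and 0.18 for Pccb and 0.22 for Suclg2). Without control replicate 4, Suclg2 was at an adjusted p of 0.071 and Pccb at 0.088, and Pccb was at 0.054 without control replicate 3. Suclg2 shares 21.8% of its 50-base words with other genes, so its count is less certain. Mcee, the epimerase between the carboxylase and the mutase, had a log2 fold change of 0.21 (limits -0.03 and 0.45, adjusted p = 0.41 in edgeR).

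In the list of the methionine cycle and transsulfuration, 1 of 11 tested genes was called by edgeR, against 2.71% of all genes. DESeq2 also called 1 of the 11, against 4.85% of all genes. Ahcyl2, which encodes a protein related to S-adenosylhomocysteine hydrolase, was 125, 107, 89.8, 108 and 123 CPM in controls and 91.2, 89.6, 69.3, 69.2 and 71.0 CPM in *Stat5* Adipoq libraries. Control replicate 3 alone lay below an *Stat5* Adipoq library, so the genotypes overlapped. Ahcyl2 thus had a log2 fold change of -0.50 with a standard error of 0.11 (adjusted p = 0.031 in edgeR), and -0.57 without control replicate 3 (adjusted p = 0.0094). Without control replicate 4 it was -0.52 and not called (adjusted p = 0.060). Ahcyl2 was called in 3 of the 10 fits with 1 library left out, and its adjusted p ranged from 0.00070 to 0.092 over all alternatives. Of its exon bases, 5.18% also lie in exons of 4930528J11Rik on the opposite strand, and 4.56% of its 50-base words occur in other genes. Its relative Ahcyl1 had a log2 fold change of 0.14 (limits 0.02 and 0.25), and Ahcy itself, the hydrolase, was 2.62 ± 0.607 CPM (SD, n = 5) in control with wide limits of -0.22 and 0.71. Bhmt and Bhmt2, which make methionine without cobalamin, did not pass that filter.

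The folate cycle, which supplies the methyl group to methionine synthase, had 0 of 19 tested genes called by edgeR and 0 by DESeq2, with 3 at an unadjusted p-value below 0.05 (15.2% of all genes were). Its most abundant members by count were Aldh1l1 (log2 fold change -0.19, limits -0.38 and -0.01) and Slc19a1, the reduced folate carrier (0.13, limits -0.05 and 0.31). Among other cobalamin genes, 4 of 7 were tested and edgeR and DESeq2 called 0, with 1 at an unadjusted p-value below 0.05. This was Clybl, a mitochondrial lyase whose loss is linked to low circulating cobalamin, with a log2 fold change of 0.12 (limits 0.01 and 0.23). Abcc1, which exports cobalamin from cells, had a log2 fold change of 0.07 (limits -0.10 and 0.24). Amn, Lrp2 and Cblif, known from uptake in gut and kidney, did not pass the filter. Of Hcfc1, Thap11 and Zfp143, regulators of Mmachc transcription, 0 of 3 were called by edgeR and by DESeq2, with 0 at an unadjusted p-value below 0.05. Hcfc1 and Thap11 had log2 fold changes of 0.07 and 0.01.

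**Figure D2:**
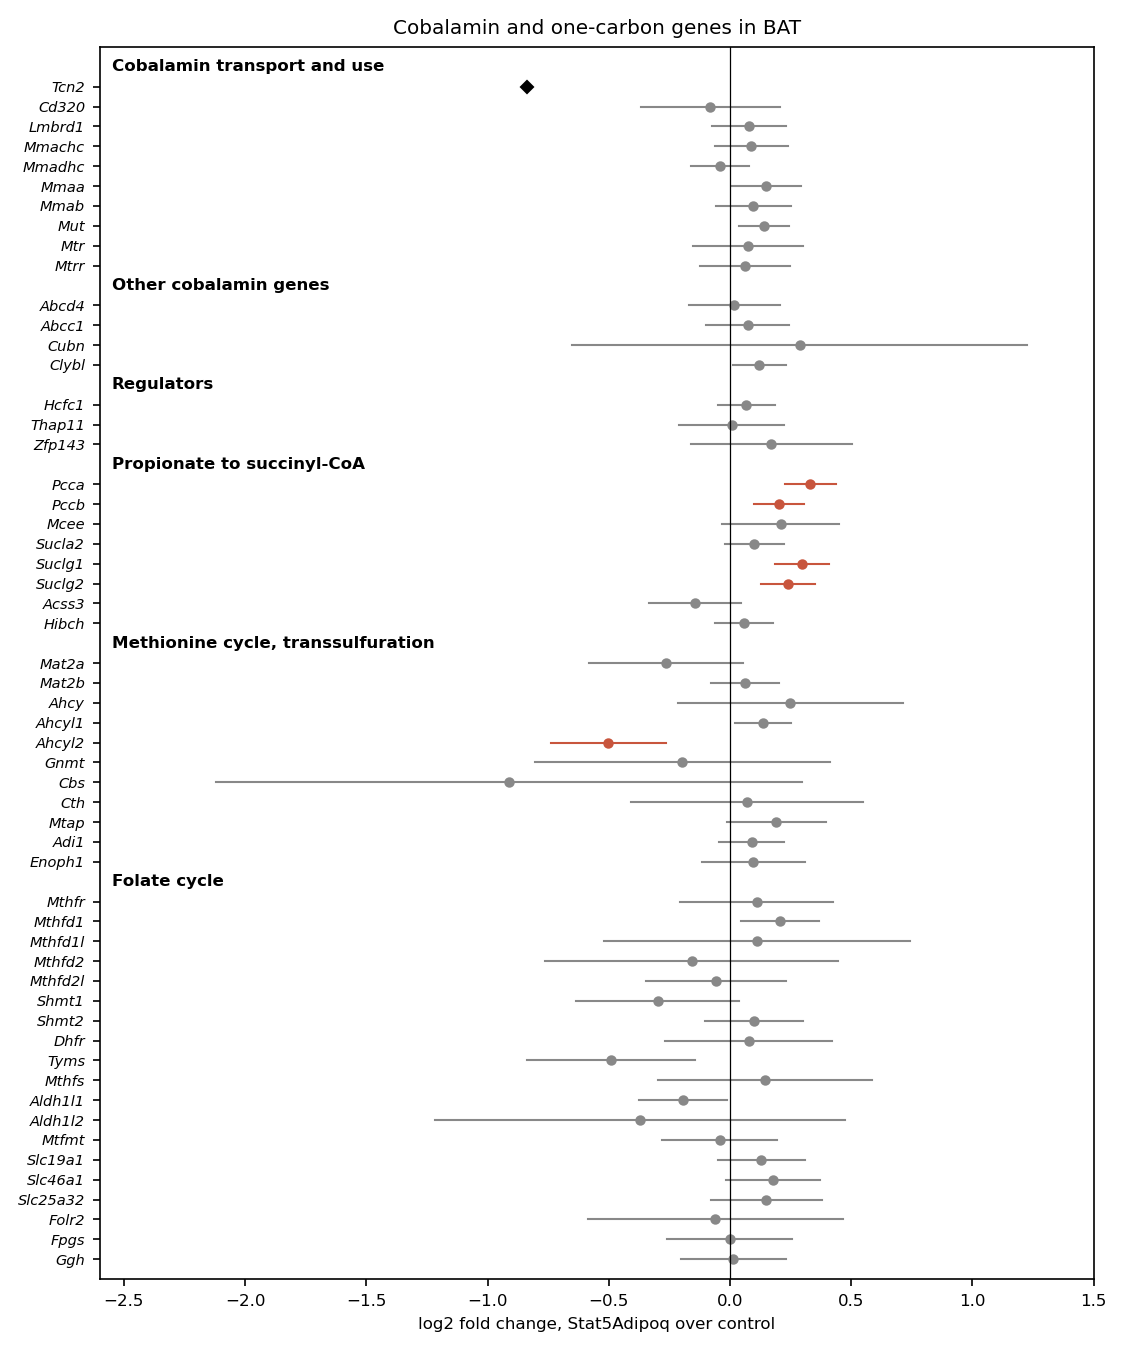
Log2 fold changes of *Stat5* Adipoq over control for the 10 cobalamin genes and the 45 tested genes of 5 lists, with bars for 95% confidence limits and red for genes called by edgeR. Tcn2, drawn as a black diamond without limits because it was picked for its value, lies at -0.84, while the other 9 cobalamin genes lie between -0.08 and 0.15.

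Genes close to Tcn2 on chromosome 11 were examined within 200000 bp on either side, where 10 genes are listed and 8 were tested. Dusp18, a dual specificity phosphatase gene 15778 bp away, was lower, and it was the only 1 of the 8 called by edgeR, which called 2.71% of all genes (DESeq2 called 2 of the 8, and 4.85% of all genes). Its mRNA was 20.3, 23.1, 23.9, 31.0 and 20.1 CPM in controls and 16.7, 11.7, 14.2, 16.5 and 17.3 CPM in *Stat5* Adipoq libraries. Every *Stat5* Adipoq library was lower than every control, and the genotypes did not overlap for 4.39% of all genes. The smallest gap was between control replicate 5 and *Stat5* Adipoq replicate 5. Dusp18 had a log2 fold change of -0.64 with a standard error of 0.14 (adjusted p = 0.030 in edgeR). Without control replicate 4 it was -0.52 and not called (adjusted p = 0.059 in edgeR). The call was kept in 4 of 10 fits with 1 library left out, and the adjusted p ranged from 0.0012 to 0.088 over all alternatives.

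Slc35e4, which lies between Dusp18 and Tcn2 and is 2413 bp from Tcn2, had a log2 fold change of -0.21 (limits -0.71 and 0.30) at 4.11 ± 1.03 CPM (SD, n = 5) in control. On the other side the nearest tested gene was Pes1, a gene of ribosome assembly at a distance of 31897 bp, with a log2 fold change of -0.02 (limits -0.21 and 0.16). Sec14l4, 99300 bp away, had the highest fold change of the 8 at 0.26, at adjusted p = 0.070 in edgeR and 0.032 in DESeq2. Its libraries did not overlap either, at 37.1 to 46.8 CPM in control and 49.1 to 54.2 CPM in *Stat5* Adipoq BAT. The fold changes of neighbours of Tcn2 thus had both signs.

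**Figure D3:**
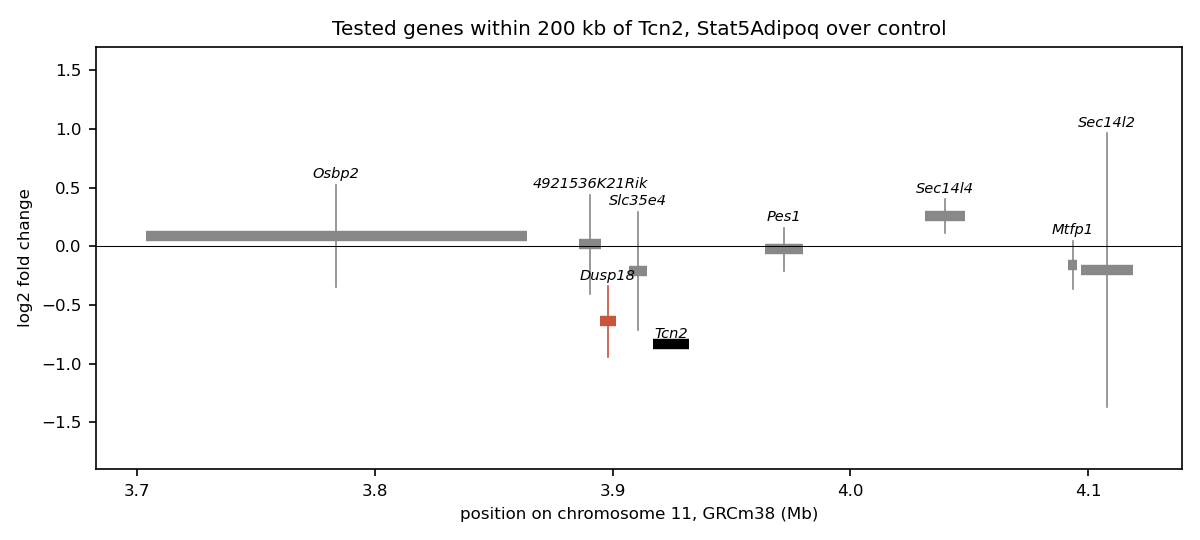
Map of the region around Tcn2 on chromosome 11 of GRCm38, where each thick bar spans a tested gene at the height of its log2 fold change (*Stat5* Adipoq over control) and thin lines are 95% confidence limits. Tcn2 (black, no limits) and Dusp18 (red, called) lie below the other genes, at -0.84 and -0.64.

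Variation between libraries of the same genotype was compared with that of Tcn2 as a description, by correlating deviations of log2 CPM from the genotype mean over 10 libraries, which differ in depth and in marker sums. Among the 10151 other genes with at least 50 counts on average, the most alike were Plaa (Pearson r = 0.97, Spearman rho = 0.98), Sgpl1 (0.97 and 0.98), Adam12 (0.97 and 0.96), Ubxn8 (0.96 and 0.89) and Tbc1d20 (0.96 and 0.95). The adjusted p-values of these 5 genes for the genotypes were between 0.39 and 0.94 in edgeR. Tcn2 itself varied little within a genotype, with an SD of log2 CPM of 0.10 in control and 0.06 in *Stat5* Adipoq BAT.

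With all libraries, Lmbrd1 was the cobalamin gene most like Tcn2 (r = 0.84, rho = 0.83, position 158), followed by Mmaa (r = 0.71, rho = 0.75). Over all genes, the 5th and 95th percentiles of r were -0.74 and 0.74. Mmab was at the opposite end (r = -0.75, rho = -0.81), and Mtr had r = -0.64 and rho = -0.55. Cd320, Mtrr, Mut, Mmachc and Mmadhc had r of 0.59, 0.59, 0.48, 0.44 and 0.29. With library size only, r was 0.28 for Mmachc, 0.42 for Cd320 and -0.49 for Mtr, and the other cobalamin genes moved less. For 3 genes r moved most with the library left out. Without control replicate 3, r fell to 0.0033 for Mmachc, 0.015 for Mmadhc and 0.38 for Cd320. Without control replicate 4, r was 0.88 for Mmachc, 0.83 for Cd320 and 0.68 for Mmadhc, so that Mmachc was slightly above Lmbrd1 (0.88) and all 3 were above Mmaa (0.64). Without *Stat5* Adipoq replicate 3, Mmaa (0.94) was above Lmbrd1 (0.84). Over all libraries left out in turn, which beyond control replicates 3 and 4 was chosen after seeing the data, r stayed between 0.78 and 0.93 for Lmbrd1, between -0.82 and -0.65 for Mmab and between -0.80 and -0.43 for Mtr, which was below Mmab (-0.75) without control replicate 3. The other cobalamin genes thus had correlations of both signs with Tcn2. The sum of brown adipocyte markers had r = 0.87 with Tcn2, that of macrophage markers 0.69 and that of liver markers 0.72 (0.41 without Cyp2e1). The sums of fibroblast, Schwann cell, muscle and endothelial markers had r of 0.43, 0.36, 0.22 and -0.44. These correlations of sums were not recomputed with libraries left out. Among controls, the brown adipocyte sum and Tcn2 were both highest in control replicates 3 and 4.

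Promoter windows of 300 bases, from 250 before to 50 after a transcript start, were taken from RefSeq for GRCm38.p6, in which 7 of the 10 genes matched with 11 windows. The genes not matched were Tcn2, Mmadhc and Mut. The letters TTCNNNGAA, which read the same on both strands and form the known core recognised by STAT5 proteins, occurred in 0 of the 11 windows and in 8.30% of all 32851 windows. Of the 7 genes, 4 (57.1%) shared part of a window with that of a gene on the opposite strand, as did 11.9% of all 27025 genes with a window. The pairs were Mmachc with Ccdc163, Mmab with Mvk, Mmaa with Gm4890 and Mtrr with Fastkd3. Mmab and Mvk, the mevalonate kinase gene, are shown as the pair with named enzymes on both sides. The window of Mmab (chr5:114443978-114444277, minus strand) is printed 5′ to 3′, and capitals mark the 259 bases shared with the window of Mvk.
Mmab: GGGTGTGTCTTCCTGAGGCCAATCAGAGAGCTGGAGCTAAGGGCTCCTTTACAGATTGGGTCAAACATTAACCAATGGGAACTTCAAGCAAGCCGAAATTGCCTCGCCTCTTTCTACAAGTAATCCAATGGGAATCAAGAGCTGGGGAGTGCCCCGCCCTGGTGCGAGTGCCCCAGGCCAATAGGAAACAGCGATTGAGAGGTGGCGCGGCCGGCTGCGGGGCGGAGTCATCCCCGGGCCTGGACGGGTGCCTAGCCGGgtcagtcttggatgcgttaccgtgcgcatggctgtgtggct
The mRNA of both genes had limits that included 0. Mvk had a log2 fold change of -0.10 (limits -0.32 and 0.11) and Mmab of 0.10. Ccdc163 had a log2 fold change of 0.24 (limits 0.02 and 0.45, adjusted p = 0.27 in edgeR) beside 0.09 for Mmachc. Fastkd3 had -0.17 (limits -0.42 and 0.08) beside 0.06 for Mtrr, and Gm4890 had -0.09 (limits -0.43 and 0.25) beside 0.15 for Mmaa.

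Of the 5 called list genes and Dusp18, all 6 matched with 9 windows, of which 2 held TTCNNNGAA, against 8.30% of all windows. These were 1 of the 3 windows of Ahcyl2, a gene that was lower, and a window of Pccb, a gene that was higher. They are printed from RefSeq for GRCm38.p6, 5′ to 3′ on the strand of the gene, because they hold the letters searched, which are in capitals. The window of Ahcyl2 is chr6:29853491-29853790 on the plus strand, with the match starting 144 bases before the start of a transcript that begins inside the gene, and that of Pccb is chr9:101034835-101035134 on the minus strand, with the match starting 141 bases before the transcript start. The window of Ahcyl2 nearest its gene start held no match.
Ahcyl2: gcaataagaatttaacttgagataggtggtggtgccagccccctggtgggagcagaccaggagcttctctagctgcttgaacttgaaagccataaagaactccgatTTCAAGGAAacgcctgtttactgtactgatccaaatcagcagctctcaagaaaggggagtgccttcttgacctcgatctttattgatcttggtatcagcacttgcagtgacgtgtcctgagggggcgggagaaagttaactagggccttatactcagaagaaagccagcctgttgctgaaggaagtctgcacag
Pccb: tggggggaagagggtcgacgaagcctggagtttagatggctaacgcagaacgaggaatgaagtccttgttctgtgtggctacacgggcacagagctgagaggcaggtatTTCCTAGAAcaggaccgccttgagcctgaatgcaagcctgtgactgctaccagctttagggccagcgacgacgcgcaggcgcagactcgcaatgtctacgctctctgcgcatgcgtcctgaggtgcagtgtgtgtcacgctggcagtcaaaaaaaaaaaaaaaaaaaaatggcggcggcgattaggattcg
A match describes these letters, and whether STAT5 binds there was not analysed here.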

How the data were processed

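RNA of BAT was sequenced as single-end reads of 50 bases. According to the methods and the submitters' processing notes, the authors aligned reads to GRCm38 with STAR 2.5.0b, counted them over exons with featureCounts 1.5.0-p1 and deposited counts per gene without normalization. The library kit keeps the strand, but whether the counting used it is not given in the sources used here, so genes with exons on both strands of a locus are uncertain. A further deposited table holds the authors' fold changes and p-values from DESeq2 1.16.1, of which only gene symbols and identifiers were used.

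Samples were grouped by their labels. The filter kept genes whose counts, scaled by DESeq2 size factors, summed to over 45 across the libraries. Genotypes were compared with edgeR 4.0.16 (quasi-likelihood F test, TMM, no covariate, Benjamini-Hochberg adjustment over all kept genes, threshold 0.05) in R 4.3.3. Log2 CPM used a prior count of 1. Alternatives were DESeq2 1.42.0, its size factors, library size only, other filters, a block for the replicate number and leaving out each library. The same alternatives for genes near Tcn2, for Stat5a and Stat5b and for single list genes, the liver sum without Cyp2e1 or control replicate 3, and correlations without libraries other than control replicates 3 and 4, were chosen after seeing the data. The comparison of genotypes was tested on simulated data, with 200 of 13568 genes changed by 1 or 1.5 on the log2 scale. At a change of 1, edgeR recovered 96.8% and DESeq2 97.8%, and at 1.5 both recovered 100%. Of the calls, 7 of 204 by edgeR (3.43%) and 22 of 220 by DESeq2 (10.0%, above the threshold) were genes not changed. Smaller changes were not simulated. Within each genotype, every pair of libraries differed by more than sampling noise.

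The members and lists were chosen with earlier results of these data known. Named genes are the 10 members, called genes of the lists, otherwise the 2 genes of a list with the most counts, called and nearest neighbours of Tcn2, the 5 genes most alike and the most abundant marker of each list. Abcd4, Mcee, Ahcyl1, Ahcy, Sec14l4, Fabp4, Dio2, Ppargc1a, Cbs, Cubn and the genes that share a promoter window were named after their values were seen. Exon lengths and shared words come from GENCODE transcripts matched to RefSeq.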

Additional observations from a re-analysis of the deposited data

Results flagged for a closer look

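The gap between the highest or lowest library and its nearest neighbour was large for the range in 7 of 36 groups of 5 libraries. Chance flags about 1 in 20 groups, or 1.8 of 36. Mtr was 11.6 CPM in control replicate 4, below 14.7 to 15.1 CPM in the other controls. Total counts in the same library were 19514904, against 8488129 to 10936218, and its macrophage markers summed to 233 CPM, above 176 to 190 CPM. The macrophage sum of Stat5Adipoq replicate 3 was 149 CPM, below 182 to 193 CPM in the others. The muscle sum of control replicate 3 was 3821 CPM, above 4.70 to 309 CPM. In Stat5Adipoq replicate 1 the liver sum was 87.9 CPM, above 32.4 to 35.6 CPM, and the Schwann cell sum was 233 CPM, above 123 to 151 CPM. No Tcn2 value stood apart in this way in either genotype.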

How the results depend on the processing

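The log2 fold change of Tcn2 stayed between -0.86 and -0.81 under every alternative, and none of the other 9 cobalamin genes was called under any of them. Calls over all genes numbered 658 with DESeq2's Wald test and 185 to 443 with 1 library left out, against 368. The count was below 368 by over 1.5 times without control replicate 1, 2 or 4 (224, 213 and 221) and without Stat5Adipoq replicate 3, 4 or 5 (185, 193 and 191). Of the list genes, 3 were called with library size only and 2 to 4 with 1 library left out, against 5, with 4 only without control replicate 3 or Stat5Adipoq replicate 2. Near Tcn2, DESeq2 called 2 genes and leaving out 1 library gave 0 to 1, with Dusp18 lost without control replicate 2 or 4 or Stat5Adipoq replicate 2, 3, 4 or 5. Signs changed for Cd320 without control replicate 3 (0.041, from -0.17 with other libraries left out) and for Mtr without control replicate 4 (-0.00075, up to 0.14 with others left out). The liver sum differed by -1.64 on the log2 scale, by -1.36 without control replicate 3, by -0.55 without Cyp2e1, and by 0.37 without both Cyp2e1 and control replicate 3. The causes were not tested. With library size only, 43.0% of calls were higher, against 51.6%. With the replicate number as a block, 273 genes, 3 list genes and 0 genes near Tcn2 were called, and Pccb, Suclg2 and Dusp18 lost their calls at log2 fold changes of 0.20, 0.24 and -0.63, against 0.20, 0.24 and -0.64. Pccb lost its call also with no filter on low counts and with library size only, the latter with Suclg2. Same-numbered libraries had correlations of deviations between -0.23 and 0.10, and 1 of 5 numbers correlated best with itself. No pairing by number was seen, but 5 correlations cannot exclude a weak one. Genes with few counts, such as Ahcy, Cbs and Cubn, have limits too wide to show moderate changes.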
